A study of Homo sapiens with 9 samples.

Results

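Chromosome 1 is the largest human chromosome, and its short and long arms are separated by the centromere and a large block of repeats next to it. The peaks described here are those of 6 ChIRP-seq peak lists that lie on chromosome 1 in hg19 and either end below 118500000 or start above 145000000, which leaves out the middle of the chromosome. These numbered 2689 of 20698 peaks, or 13.0%, with 1909 in the SRA lists and 780 in the LacZ lists. The short arm covered 118.5 Mb and the long arm, up to the end of its last peak, 103.6 Mb. The terminal band, the first 30 Mb of the short arm, was compared with the remaining 192.1 Mb of both arms.

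The steroid receptor RNA activator, SRA, is a long non-coding RNA known as a coactivator of nuclear receptors, and it has been placed in complexes with the insulator protein CTCF and with histone methyltransferases of the trithorax and polycomb groups. In ChIRP, chromatin is crosslinked and sheared, and biotinylated probes complementary to an RNA pull down that RNA with the DNA fixed to it. Peaks then mark stretches of DNA that were recovered with the probes, whether through the RNA or through the probes themselves. Probes against a transcript that the cells lack show what those probes recover without a target RNA. They do not show what the SRA probes recover by themselves.

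All samples were from K562, an established human erythroleukemia line, grown without treatment. In 3 samples the probes were against SRA and in 3 against LacZ, a bacterial transcript absent from human cells, and 3 input samples were not analysed here. The methods of the study name biological triplicates for ChIRP-seq. P-values compare the peak lists of these samples, and the SRA lists cannot be treated as independent of each other, as described below. Read depth is unknown, and intervals cover counting error only. Each peak carries a score from the authors' peak caller, whose lowest value was 40 in the SRA lists and LacZ list 1 and 40.01 in LacZ lists 2 and 3. Its heading names −log10 of a p-value, whereas a minimum near 40 would follow from a cutoff of 0.0001 on a scale of 10 times −log10, so the scale is uncertain, and scores and their differences are given in the units of the file and only compared with each other.

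On the arms there were 602, 643, and 664 peaks in SRA lists 1, 2, and 3, and 362, 363, and 55 in LacZ lists 1, 2, and 3. These were 12.1, 13.0, and 12.8% of the SRA lists and 13.5, 13.9, and 19.0% of the LacZ lists. LacZ list 3 stood apart, with few and wide peaks, a median width of 1118 bp on the arms against 168 and 171 bp in LacZ lists 1 and 2. The SRA lists were close to the latter, with medians of 173, 172, and 171 bp. SRA lists 1 and 2 shared 333 arm peaks, lists 1 and 3 shared 311, and lists 2 and 3 shared 335, and each shared peak had identical ends in both lists. In LacZ lists 1 and 2, 6 pairs of arm peaks overlapped and 0 had the same ends, and LacZ list 3 overlapped neither of them on the arms. Because ends of shared SRA peaks never differed, the SRA lists cannot be treated as 3 independent samples, and tests are also given with them as 1 sample.

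The short arm held more peaks than the long arm in all 6 lists. Short-arm peaks numbered 353, 374, and 399 in the SRA lists and 220, 202, and 33 in the LacZ lists, and long-arm peaks 249, 269, and 265 and 142, 161, and 22. Per Mb, the short arm exceeded the long arm by a ratio of 1.24, 1.22, and 1.32 in the SRA lists and of 1.35, 1.10, and 1.31 in the LacZ lists. The exact 95% interval of this ratio included 1 in LacZ list 2 (0.888 to 1.36) and in LacZ list 3 (0.742 to 2.36). As a share of the arm peaks, the short arm took 58.6, 58.2, and 60.1% in the SRA lists and 60.8, 55.6, and 60.0% in the LacZ lists. The SRA values lay inside the LacZ range. The mean difference of 0.157 percentage points was smaller than the LacZ spread (58.8% ± 2.76, SD, n = 3), and a two-sided exact permutation test over lists gave p = 0.9 (adjusted p = 0.9 over 2 tests), where 3 lists against 3 cannot go below 0.1. With the SRA lists as 1 sample the exact permutation test gave p = 1, where the smallest possible is 0.25, so neither test could have passed a threshold of 0.05. The sign of the difference turned when single lists were left out, to -1.42 points without LacZ list 2 and -0.406 points without SRA list 3. With covered bases in place of peaks it was 2.09 points.

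When each list was cut to its upper-scoring peaks, those not below its own median, the short arm took 60.5, 60.3, and 60.9% in the SRA lists and 59.3, 56.3, and 56.0% in the LacZ lists. Every SRA value was then above every LacZ value, by a mean of 3.37 points, with p = 0.1 in the exact permutation test and p = 0.25 with the SRA lists as 1 sample, each the smallest possible. The terminal band took 28.9, 33.5, and 32.5% in the SRA lists and 21.98, 24.7, and 40% in the LacZ lists, with p = 0.7 in the exact permutation test and p = 1 with the SRA lists as 1 sample. With this cut the groups overlapped in the terminal share and not in the short-arm share. The shares of LacZ list 3 then rested on 25 arm peaks, 14 on the short arm and 10 in the terminal band.

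The terminal band was the densest segment, for LacZ as well as for SRA. It held 172, 199, and 215 SRA peaks and 90, 95, and 19 LacZ peaks. Its density exceeded that of the rest of the arms by a ratio of 2.56, 2.87, and 3.07 in the SRA lists and of 2.12, 2.27, and 3.38 in the LacZ lists, with every exact 95% interval above 1. The band was not chosen independently of these data, so the intervals describe it and test nothing. Outside the band the short arm was no denser than the long arm in 5 of the 6 lists, with ratios of 0.851, 0.762, and 0.813 for SRA and of 1.07, 0.778, and 0.745 for LacZ.

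The terminal share of the arm peaks was 28.6, 30.9, and 32.4% in the SRA lists and 24.9, 26.2, and 34.5% in the LacZ lists. The 3 SRA values were above LacZ lists 1 and 2 and below LacZ list 3, whose share rests on 19 of 55 peaks (95% Wilson interval 23.4 to 47.7%). The difference between the group means was 2.11 percentage points against a LacZ spread of 28.5% ± 5.25 (SD, n = 3), with p = 0.5 in the exact permutation test (adjusted p = 0.9). Without LacZ list 1, 2, or 3 it was 0.275, 0.930, and 5.12 points, with p = 0.2 in the exact permutation test for the last, and with the SRA lists counted as 1 sample the exact test gave p = 1, where the smallest possible is 0.25.

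**Figure D1:**
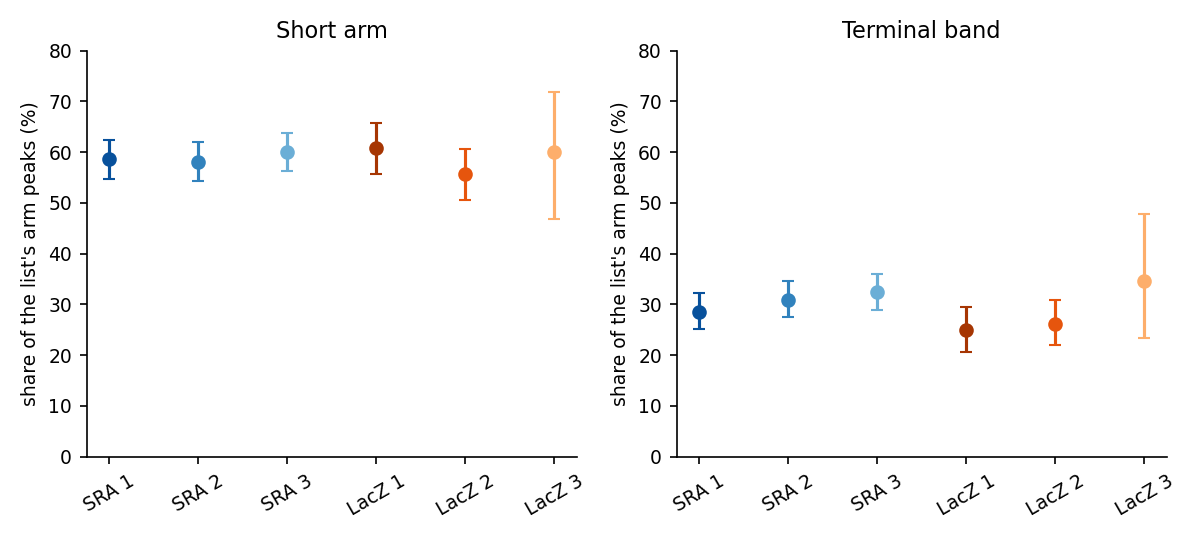
Share of each list's arm peaks, in percent, on the short arm and in the terminal band, for 3 SRA and 3 LacZ lists. Points are lists and bars are 95% Wilson intervals, which cover counting error only. Short-arm shares of 55.6 to 60.8% overlap between the groups, and LacZ list 3, with 55 arm peaks, has the widest bars.

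These shares moved when each list was reduced to its 290 highest scores, as many as the smallest list holds. The arms then kept 34, 41, and 37 SRA peaks and 45, 40, and 55 LacZ peaks. The short arm took 73.5, 68.3, and 73.0% of the SRA peaks and 57.8, 62.5, and 60.0% of the LacZ peaks, and the terminal band took 38.2, 41.5, and 48.6% and 26.7, 32.5, and 34.5%. On both measures every SRA value was above every LacZ value, by a mean of 11.5 points each, with p = 0.1 in the exact permutation test and p = 0.25 with the SRA lists as 1 sample, each the smallest possible. The 290 peaks start at a score of 57.98, 58.56, and 59.1 in the SRA lists, at 53.48 and 53.01 in LacZ lists 1 and 2, and at 40.01 in LacZ list 3, so they are not peaks of like score. The part of these score limits in the difference was not tested.

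SRA-binding regions were peaks found in 2 or 3 SRA lists that shared not even 1 bp with a LacZ peak. The arms held 547 such regions, 324 on the short arm and 223 on the long arm, and 211 of the 547 were in all 3 SRA lists. The count fell to 332, 307, and 330 when SRA list 1, 2, or 3 was dropped and both remaining lists had to hold the peak. The terminal band held 166 of them, or 5.53 per Mb, against 1.79 per Mb in the rest of the short arm and 2.15 per Mb on the long arm. Over chromosomes 1 to 22 and X outside the arms the density was 1.42 per Mb. The short arm exceeded the long arm by a ratio of 1.27 (exact 95% interval 1.07 to 1.51) and the terminal band exceeded the rest of the arms by 2.79 (2.31 to 3.36). Between the rest of the short arm and the long arm the ratio was 0.83 (0.672 to 1.02), an average over dense and sparse parts. From 30 to 55 Mb there were 3.76 regions per Mb and from 55 to 105 Mb 0.8, with edges set after the counts were seen. The dense part of the short arm was thus not confined to its terminal band. The last 30 Mb of the long arm were not dense in the same way. They held 61 regions against 166 in the first 30 Mb of the short arm, a ratio of 2.72 (2.02 to 3.71) between the ends of the chromosome. The LacZ lists differed in the same direction, with 90, 95, and 19 peaks in the first 30 Mb and 45, 50, and 8 in the last.

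Along the arms, 5 Mb bins held between 0 and 35 regions, with a median of 10. All 6 bins of the terminal band held 20 or more, and the adjoining bins from 30 to 35 and from 35 to 40 Mb, with 25 and 24, were as dense. The ratio to the rest was 2.95 with the band ended at 40 Mb, so the dense part did not stop at 30 Mb. Farther on the density was uneven, and the edges of the following stretches were set after the counts were seen, so they were not tested. From 55 to 105 Mb, 10 bins held 40 regions, or 0.8 per Mb, and included the only bin with 0 regions, from 80 to 85 Mb, where the LacZ lists held 1, 1, and 0 peaks. The longest distance between neighbouring regions, 9.31 Mb from 76361821 to 85669406, lay in this stretch, and the next, 8.35 Mb from 100726960 to 109076953, began in it and ended beyond it. On the long arm, 170 to 200 Mb held 22 regions, or 0.733 per Mb, and the adjoining 200 to 210 Mb held 54, or 5.4 per Mb. From 55 to 105 Mb there were 41, 46, and 45 SRA peaks and 40, 33, and 2 LacZ peaks, or 6.81, 7.15, and 6.78% of the arm peaks of the SRA lists and 11.05, 9.09, and 3.64% of those of the LacZ lists. From 170 to 200 Mb there were 26, 26, and 30 SRA peaks and 25, 31, and 4 LacZ peaks, or 4.32, 4.04, and 4.52% against 6.91, 8.54, and 7.27%. The LacZ lists thus had larger shares than the SRA lists in this long-arm stretch, and LacZ lists 1 and 2 did so in the short-arm stretch. The reverse was seen from 145 to 170 Mb, with 14.5, 14.6, and 14.0% of the SRA lists against 13.0, 11.8, and 7.27% of the LacZ lists, and from 200 to 210 Mb, with 9.47, 8.86, and 8.58% against 4.70, 7.16, and 7.27%. From 210 Mb to the tip the LacZ shares were again the larger, with 13.1, 14.3, and 12.8% of the SRA lists against 14.6, 16.8, and 18.2% of the LacZ lists. From 30 to 55 Mb the groups overlapped, with 18.3, 15.9, and 17.3% for SRA against 18.8, 16.0, and 16.4% for LacZ. They also overlapped from 105 to 120 Mb. A LacZ list 3 share of 7.27% is 4 peaks. How often the groups differ in like stretches elsewhere in the genome was not computed.

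**Figure D2:**
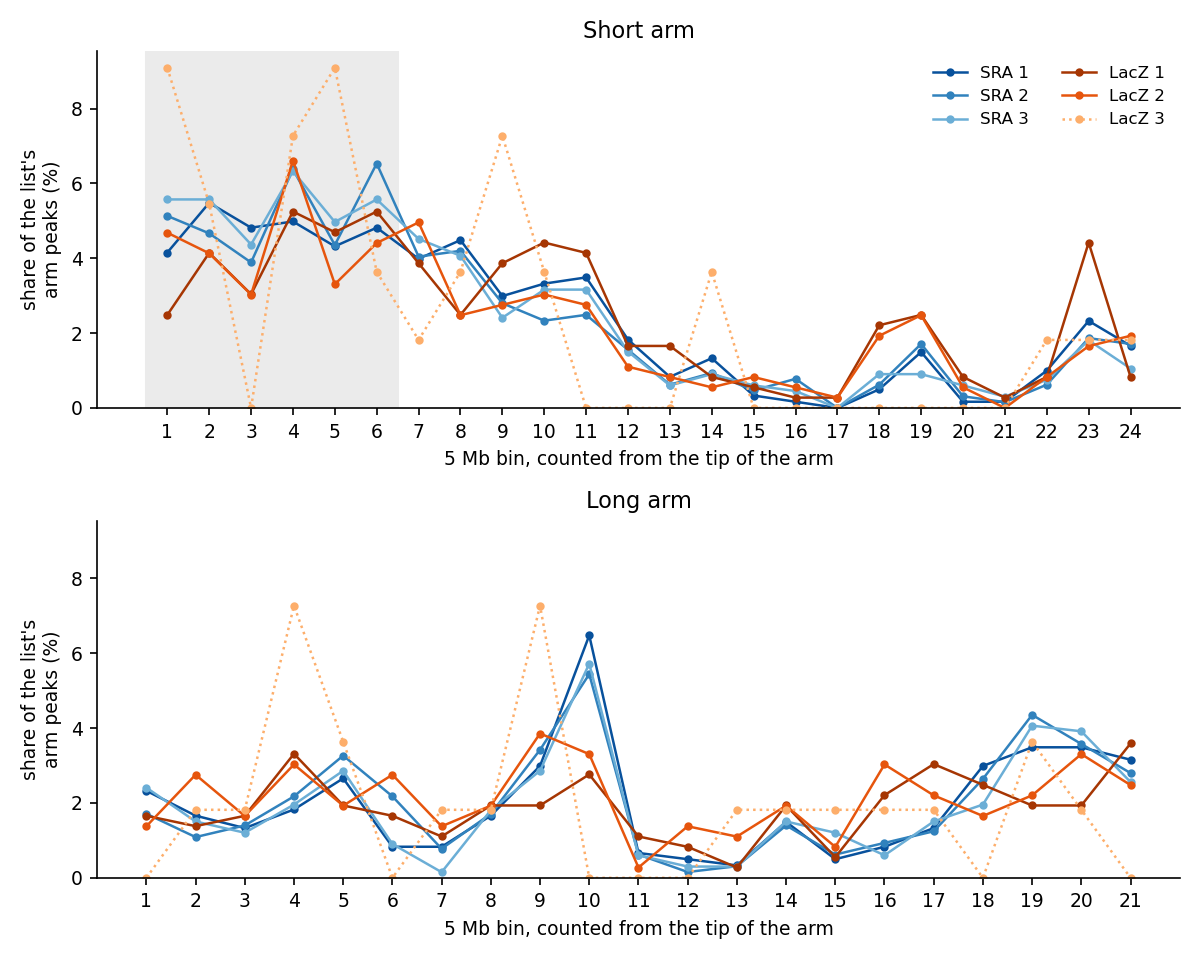
Share of each list's arm peaks, in percent, in 5 Mb bins counted from the tip of the short arm and from the tip of the long arm, with 1 line for each of 3 SRA and 3 LacZ lists and the terminal band shaded. The bin next to the centromere on the short arm and the tip bin of the long arm are cut short by the limits of the arms. In bin 10 of the long arm the SRA lists stand above the LacZ lists, and LacZ list 3 jumps between bins because 55 peaks make up its line.

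Each bin's share of all peaks of a list was compared between the groups. Every SRA share was above every LacZ share in 2 of 45 arm bins, or 4.44%, against a background of 79 of 571 bins on chromosomes 1 to 22 and X, or 13.8%. Every SRA share was below every LacZ share in 9 of 45 arm bins, or 20%, against a background of 43 of 571 bins, or 7.53%. Of these 9 bins 2 were on the short arm, 7 on the long arm, and 0 in the terminal band. In LacZ list 3 a single peak makes 0.345% of the list, and in 6 of the 9 bins it held just 1. Without that list 7 arm bins were above, or 15.6% against a background of 20%, and 14 were below, or 31.1% against 20.7%. The arms thus had fewer bins above and more bins below than the background in both settings, with a smaller distance from it without LacZ list 3. Leaving out LacZ list 1 instead gave 7 bins above, or 15.6% against 27.9% of all bins, and 14 below, or 31.1% against 12.8%. Leaving out SRA list 1 gave 4 above, or 8.89% against 16.5%, and both of these settings were chosen after seeing the data. With upper-scoring peaks the contrast narrowed to 5 bins above, or 11.1% against 15.6%, and 6 below, or 13.3% against 4.4%. Every SRA list also had a smaller share of its peaks on the arms than every LacZ list. These shares were 12.1, 13.0, and 12.8% against 13.5, 13.9, and 19.0%, and the bin counts are not separate from them.

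The 2 bins above were 10 to 15 Mb and 200 to 205 Mb. From 10 to 15 Mb there were 29, 25, and 29 SRA peaks against 11, 11, and 0 LacZ peaks. From 200 to 205 Mb there were 39, 35, and 38 against 10, 12, and 0, or 0.783, 0.708, and 0.733% of the SRA lists against 0.374, 0.459, and 0% of the LacZ lists. This was the long-arm bin with the most regions, 35, the same number as in 25 to 30 Mb. The SRA mean was 1.78 times the mean of LacZ lists 1 and 2. From 155 to 160 Mb it was 1.77 times, but LacZ list 3, with 2 peaks there, had a larger share than every SRA list. The bins below included 40 to 45 Mb and 45 to 50 Mb on the short arm, and 170 to 175 Mb, with 5, 6, and 4 SRA peaks against 8, 11, and 1 LacZ peaks.

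In 222 windows of 1 Mb the median was 2 regions, and 54 windows held 0. The highest count was 17, from 201 to 202 Mb, with 19, 16, and 16 SRA peaks against 2, 1, and 0 LacZ peaks. The next was 14, from 16 to 17 Mb, with 13, 15, and 19 SRA peaks against 8, 8, and 2 LacZ peaks. The leading windows of the 2 arms thus differed in how many LacZ peaks they held.

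Across the 45 bins, regions per Mb and the summed peaks per Mb of LacZ lists 1 and 2 rose together, with Pearson's r of 0.79 and Spearman's rho of 0.81. This is a description over bins of 1 chromosome and 1 cell line, which share the genome sequence and the read mapping, and bins are not replicates. Pearson's r was 0.88 in the 24 bins of the short arm, 0.58 in the 21 bins of the long arm, and 0.69 in the 39 bins outside the terminal band. Between LacZ lists 1 and 2 themselves r was 0.76. Copy number, base composition, and mappability of the bins were not analysed here.

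**Figure D3:**
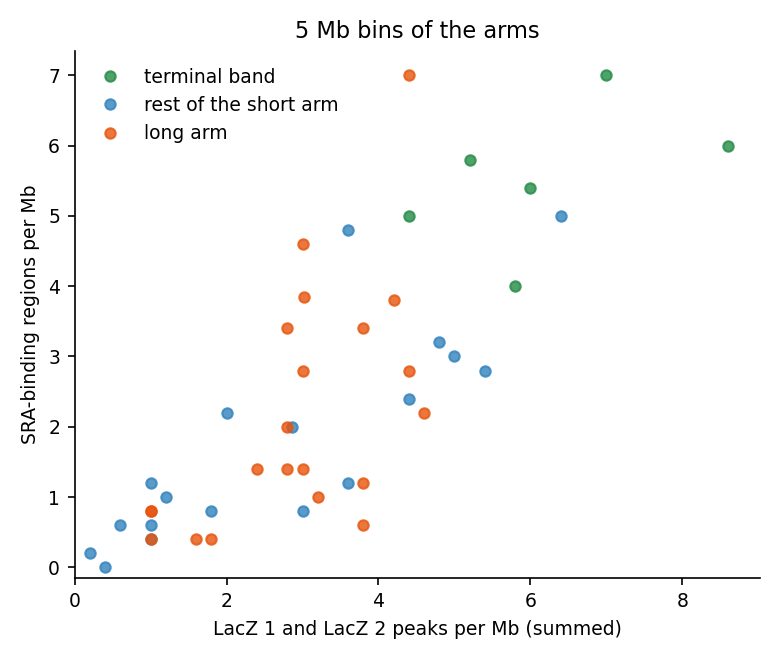
SRA-binding regions per Mb against the summed peaks per Mb of LacZ lists 1 and 2, with 1 point for each of 45 bins of 5 Mb and colors for the terminal band, the rest of the short arm, and the long arm. Bins with more LacZ peaks held more SRA-binding regions, and the long-arm point at 7 regions per Mb is the bin from 200 to 205 Mb.

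Counted once each, SRA peaks on the arms numbered 1144. Of these, 593 came from a single list, 337 from 2 lists, and 214 from all 3. The share in all 3 lists was 18.7% (95% Wilson interval 16.6 to 21.1%), beside 21.9% (20.97 to 22.8%) in the rest of the genome. It was 17.4% in the terminal band (13.8 to 21.7%), 24.4% in the rest of the short arm (19.96 to 29.5%), and 16.0% on the long arm (13.0 to 19.6%). The dense terminal band did not have the highest share, and its difference from the rest of the arms was -1.87 percentage points (95% interval -6.49 to 3.14). Without SRA list 1, 2, or 3 the difference in the share held by both remaining lists was -0.710, -1.35, and -3.70 points. For the share in all 3 lists it was -0.227 and 0.0215 points with the band ended at 40 and at 20 Mb. Neither the size nor the sign of the difference was thus settled. Peaks in more lists had higher scores, with medians of 42.1, 44.7, and 47.1 for peaks in 1, 2, and 3 lists. Each SRA list held only scores of 40 or more, so this rise is not separate from that cutoff.

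**Figure D4:**
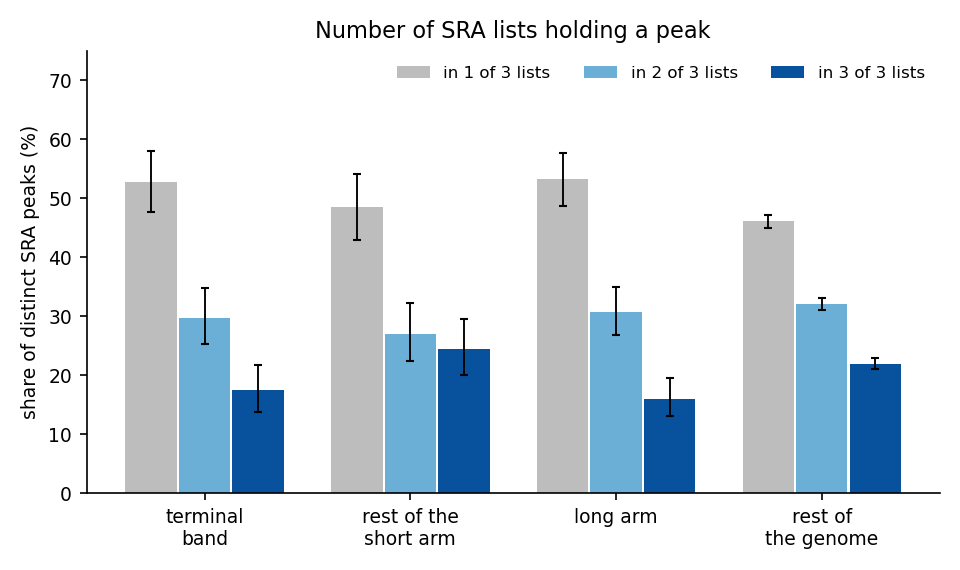
Share of distinct SRA peaks, in percent, that were in 1, 2, or 3 of the 3 SRA lists, for the terminal band, the rest of the short arm, the long arm, and the rest of the genome. Bars start at 0 and error bars are 95% Wilson intervals, which cover counting error only. The share in all 3 lists is 24.4% in the rest of the short arm and 16.0% on the long arm.

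SRA peaks were slightly wider in the terminal band than in the rest, and no difference in their scores was settled. The median width of SRA peaks in the band was 182.5, 180, and 174 bp in the 3 lists, against 169, 169, and 168 bp in the rest of the arms. In the LacZ lists it was 167, 173, and 989 bp in the band and 169, 168.5, and 1170.5 bp in the rest. Over distinct SRA peaks the medians were 177 and 168 bp, a difference of 9 bp beside an SD of 3.82 bp over the differences in the 3 SRA lists, which are not separate replicates. With the band ended at 20 Mb the difference was -3 bp, so its direction depended on where the band ended. The median scores in SRA lists 1, 2, and 3 were 44.02, 44.55, and 44.61 in the band and 43.81, 43.8, and 44.39 in the rest. In the LacZ lists they were 44, 44.06, and 45.44 in the band and 44.435, 44.325, and 43.225 in the rest. Over distinct SRA peaks the median scores were 43.7 and 43.5, a difference of 0.181 beside an SD of 0.309. It was 0.235, 0.03, and 0.47 without SRA list 1, 2, or 3, 0.62 with the band ended at 20 Mb, and 1.21 among SRA-binding regions alone, so its size depended on the peaks and lists used.

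Arm peaks were wider than the other peaks of the same list in all 6 lists. The medians were 173, 172, and 171 bp on the arms against 156, 155.5, and 157 bp elsewhere in the SRA lists, and 168, 171, and 1118 bp against 153, 153, and 1102.5 bp in the LacZ lists. The wider peaks were thus seen with both probe sets.

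The highest mean scores among regions in all 3 SRA lists did not lie in the terminal band. On the rest of the short arm the leading region was chr1:40248687-40249122, 436 bp wide, with scores of 112.19, 102.67, and 63.85 in SRA lists 1, 2, and 3. On the long arm it was chr1:201227149-201227415, with 91.33, 89.91, and 94.6, and in the terminal band chr1:23928262-23928584, with 70.62, 74.1, and 70.17. The scores of the long-arm and terminal regions were close between lists, while that of the short-arm region was lower in list 3 than in the others. No gene positions in hg19 were used, so regions are given by position only.

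Other regions of the terminal band among its 5 highest were chr1:3788984-3789139, chr1:12949454-12949534, chr1:1358058-1358363, and chr1:6704924-6705048, with mean scores of 67.83, 66.75, 63.3, and 62.55. The region at 12949454 had the same score, 66.75, in all 3 lists. On the rest of the short arm chr1:31326985-31327341, chr1:58643782-58643950, chr1:45787101-45787273, and chr1:52057434-52057584 had mean scores of 74.14, 72.68, 64.29, and 62.91. On the long arm chr1:205423302-205423532, chr1:211885664-211885864, chr1:155645585-155645732, and chr1:200965483-200965686 had 60.99, 60.43, 59.73, and 59.7. Mean scores of 100 or more were rare everywhere, with 0 of 547 regions on the arms and 7 of 3976 elsewhere on chromosomes 1 to 22 and X.

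The highest LacZ score on the arms was below the mean scores of the leading regions outside the terminal band and above that of the leading region in it. The highest in LacZ list 1 were 85.06 at chr1:101498330-101498617, 81.44 at chr1:51860288-51860538, and 77.25 at chr1:148872121-148872284. In LacZ list 2 they were 81.61 at chr1:225847566-225847884, 71.66 at chr1:154014331-154014550, and 70.83 at chr1:59984895-59985051. In LacZ list 3 they were 68.33 at chr1:21983179-21985025, 65.1 at chr1:233072940-233074479, and 62.63 at chr1:41321577-41322944. None of these 9 overlapped an SRA peak, as was so for nearly all LacZ peaks. Of all LacZ peaks on the arms, 4 of 362, 4 of 363, and 2 of 55 in lists 1, 2, and 3 overlapped one.

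SRA peaks and LacZ peaks seldom coincided, although they were dense in the same bins. Of the 1144 distinct SRA peaks of the arms 10 overlapped a LacZ peak, or 0.874% (95% Wilson interval 0.475 to 1.60%). LacZ lists 1 and 2 also seldom overlapped each other, in 6 pairs, or 1.66 and 1.65% of their arm peaks. Low overlap was thus not particular to SRA against LacZ, and the share over all SRA peaks of the genome is not given here. Of the 10 SRA peaks, 5 were in the terminal band, 2 in the rest of the short arm, and 3 on the long arm. In the terminal band, chr1:2629215-2629296, chr1:16860892-16861042, and chr1:17053776-17054715 were each in 1 SRA list, and chr1:6497940-6498093 and chr1:22290066-22290311 were in all 3 and overlapped LacZ list 3. In the rest of the short arm, chr1:32993540-32993714 and chr1:47628422-47628650 were each in SRA list 1 and overlapped LacZ list 1. On the long arm, chr1:148905749-148905860 was in 2 SRA lists, chr1:153624399-153624598 in 3, and chr1:236260540-236260785 in 1. Removing those in 2 or 3 lists took 4 of 551 peaks and left the 547 regions. Elsewhere on chromosomes 1 to 22 and X, 3976 of 4016 such peaks were left, so few were removed there as well.

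Neighbouring regions lay closer together in the terminal band, with a median gap of 106 kb against 235 kb in the rest of the short arm and 227 kb on the long arm. Groups in which each region lay within 50 kb of the next held 47.0% of the regions of the band, 23.4% of those in the rest of the short arm, and 26.5% of those on the long arm. Both measures restate the higher density of the band, and grouping beyond that density was not tested. In the terminal band 5 regions lay in chr1:27183574-27267998. In the rest of the short arm 4 regions, all in 3 SRA lists, lay in chr1:54880157-54956954. On the long arm 4 regions lay within 2659 bp, in chr1:201224984-201227642, which holds the leading region of that arm and lies in the 1 Mb window with the most regions.

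The widest SRA peaks of the arms lay in 2 places. In the terminal band, chr1:16970268-16971528 (1261 bp, in 2 SRA lists), chr1:17053776-17054715 (940 bp, in 1), and chr1:16952193-16952907 (715 bp, in 2) lay within the same stretch, and the 940 bp peak overlapped 825 bp of a LacZ list 2 peak. On the long arm, chr1:234914327-234915496 (1170 bp, in 1 list) and chr1:234916626-234917352 (727 bp, in 3) were neighbours. The first of these 5 was the only one of the 547 SRA-binding regions of the arms over 1000 bp, beside 75 of 3976 elsewhere on chromosomes 1 to 22 and X.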

How the data were processed

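Single-end reads were aligned to hg19 by the authors, who deposited 1 list of MACS peaks per sample with start, end, and score. CASAVA 1.8.2 and deepTools are also named in the submitters' processing notes. The MACS version and the control library are not given in the sources used here. The score column is headed as −log10 of p, but its minimum over all lists of 40 fits 10 times −log10. Starts were read as counted from 0 and are printed counted from 1.

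The arms, the terminal band, and the lists compared were chosen with earlier results of these data known. Peaks were placed by midpoint, peaks sharing at least 1 bp were joined, and an SRA-binding region needed 2 of 3 SRA lists and no LacZ peak. Shares of peaks were compared by two-sided exact permutation tests over lists, with Benjamini-Hochberg adjustment over 2 tests. Shares have Wilson intervals and density ratios exact binomial intervals, all at 95%. The named regions were the 5 highest mean scores per segment in all 3 SRA lists, the 5 widest peaks, those on LacZ peaks, the largest groups with gaps up to 50 kb, extreme bins, and the 3 highest LacZ peaks per list. Alternatives were stricter and looser region rules, score filters, equal list sizes, joined gaps of 500 bp, other band limits, shifted bins, lists left out, and pairing by number. Joining and counting were tested on simulated peaks. Tables were handled in pandas 2.3.3 and numpy 2.4.6 under Python 3.11.15, intervals came from scipy 1.17.1, and plots from matplotlib 3.10.9. Read depth is unknown, and no gene annotation of hg19 was used.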

Additional observations from a re-analysis of the deposited data

How the results depend on the processing

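Of 70 alternatives for counts, ratios, and differences without a test, 51 stayed within the limit set for the result, 17 moved, and 2 turned the direction. Of 27 for the tested shares 2 turned the direction, and their p-values say nothing about stability, since no test could pass 0.05. The short-arm difference ran from -1.42 to 11.5 points over all its alternatives and the terminal difference from 0.275 to 11.5. The short-arm share, SRA minus LacZ, ranged from -1.42 to 1.14 points with a list left out, being -1.42 without LacZ list 2 and -0.406 without SRA list 3, and the terminal share from 0.275 to 5.12. The number of regions was 211 with all 3 SRA lists required, 1134 with any list, 278 at or above the median scores, and 307 to 549 with a list left out. The short to long arm ratio was 1.55 in all 3 lists, and the terminal ratio stayed inside its interval in all 14 alternatives. Bins above were 1 with shifted bins (2.17% against 16% of all bins), 5 at or above the median scores (11.1 against 15.6%), and 3 to 7 with a list left out. Bins below were 9 (19.6 against 6.37%), 6 (13.3 against 4.4%), and 9 to 14. In each setting the arms had a smaller share of bins above and a larger share below than all bins. That is not separate from the smaller share of the SRA lists on the arms as a whole. Leaving out lists other than LacZ list 3 was an alternative for bins chosen after seeing the data. With the band ended at 20 Mb, the difference in the share in all 3 lists was 0.0215 points, in width -3 bp, and in score 0.62. In SRA-binding regions alone the width difference was 13.5 bp and the score difference 1.21. The causes were not tested. With the replicate block the short-arm difference was 0.157 points (exact sign-flip permutation p = 0.75) and the terminal difference 2.11 (exact p = 0.5), where 3 pairs cannot go below 0.25, so no call could have changed. Deviations of same-numbered SRA and LacZ lists over 45 bins correlated at 0.472, 0.010, and 0.239, and those of different numbers at -0.356 to 0.179. SRA lists 1 and 3 correlated best with their own number and SRA list 2 with LacZ list 3, so pairing was not established. Unknown read depth limits all counts.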

Other observations

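The middle of chromosome 1 between the arms held 18, 13, and 19 peaks in the SRA lists and 15, 11, and 1 in the LacZ lists. These were 0.361, 0.263, and 0.366% of the SRA lists and 0.561, 0.420, and 0.345% of the LacZ lists, so the SRA shares were below those of LacZ lists 1 and 2 and on both sides of that of LacZ list 3.

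Among the 214 arm peaks in all 3 SRA lists, the score was highest in list 1 alone for 54, in list 2 alone for 58, and in list 3 alone for 75, and for 27 the highest score was shared by lists. The median range of a peak's 3 scores was 5.265. Across the 547 regions wider regions had higher mean scores, with Spearman's rho of 0.33, a description over regions of shared lists. It was 0.35 in the terminal band, 0.43 in the rest of the short arm, and 0.23 on the long arm.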
